A study of Homo sapiens with 4 samples.

Results

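The genes described here are 36 members of the epithelial-mesenchymal transition (EMT) programme, chosen by name from a table of 60623 genes: 7 cadherins, 4 catenins, 10 transcription factors, 2 epithelial splicing factors, 7 cytoskeletal genes and 6 matrix or stromal genes. Their RNA was measured in T24, a cell line from a human bladder carcinoma, grown in RPMI with serum. The control group and the CBX7 group held 2 libraries each, the latter from cells made to overexpress CBX7, a chromobox subunit of the Polycomb repressive complex PRC1. The study cloned full-length CBX7 into a vector that carries a FLAG tag. The labels do not say what the control cells carried, whether the CBX7 cells were a pool or 1 clone, or whether replicates came from separate cultures, so p-values here measure only the spread between libraries, which may be technical. The study examined EMT markers by western blotting, which was not analysed here, and the RNA answers which EMT genes T24 cells transcribe and which of them differed with CBX7.

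In an epithelium, E-cadherin (CDH1) joins neighbouring cells and is anchored to actin through the catenins. During EMT the zinc-finger repressors of the SNAI and ZEB families and the basic helix-loop-helix factors of the TWIST family silence CDH1 and other epithelial genes, N-cadherin (CDH2), vimentin and fibronectin come up, and the splicing factors ESRP1 and ESRP2, which keep epithelial isoforms, are lost. The microRNAs of the miR-200 family hold back ZEB1 and ZEB2, so ZEB factors and miR-200 oppose each other. T24 is commonly used as a mesenchymal-like bladder cancer line.

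CBX7 itself had 261 and 203 counts in the control libraries and 42852 and 35641 in the CBX7 libraries, a log2 fold change of 7.35 ± 0.18 (standard error, SE, adjusted p = 0.000584 from the quasi-likelihood test of edgeR, with Benjamini-Hochberg correction). Total counts lay between 20800910 and 25135488 a library. A count of 0 allows up to 3 counts, which is 0.119 to 0.144 CPM (counts scaled to the size of the library) in these libraries, counting error only. CBX7 replicate 1 stood apart: for 11077 genes averaging 100 counts or more, the Spearman correlation between gene length and its log2 ratio to control replicate 1 was -0.62, against 0.04 for the libraries numbered 2. Long genes were therefore low in CBX7 replicate 1, and values are given also after every library was corrected for gene length and GC content (called the length and GC correction) and, for the changes the results turn on, without that library. Whether the replicate number marks a batch was not stated.

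The sequences below carry the motifs named in the results. Of the 36 genes, 21 matched the RefSeq promoter table (GRCh38.p14), with 44 windows of 250 bases before to 50 bases after an annotated start. The ZEB and SNAI factors bind E-boxes, here searched as the letters CAGGTG on both strands, and the first promoter shown, of FN1, instead holds the cyclic AMP response element TGACGTCA, a palindrome. FN1 encodes fibronectin and had the lowest fold change of the 26 of the 36 genes that were tested, JUP had a pair of E-boxes beside its start 2, and ZEB1 had more E-boxes in 1 window than any other of the 21 genes. Capitals mark the motif in each.
FN1, chr2:215436019-215436318, minus strand: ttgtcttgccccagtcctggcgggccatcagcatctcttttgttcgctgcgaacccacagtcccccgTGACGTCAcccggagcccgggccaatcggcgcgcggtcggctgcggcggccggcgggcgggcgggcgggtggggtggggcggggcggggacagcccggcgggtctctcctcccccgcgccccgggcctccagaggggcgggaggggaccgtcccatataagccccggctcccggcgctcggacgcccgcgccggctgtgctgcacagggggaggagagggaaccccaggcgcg
JUP start 2, chr17:41785927-41786226, minus strand: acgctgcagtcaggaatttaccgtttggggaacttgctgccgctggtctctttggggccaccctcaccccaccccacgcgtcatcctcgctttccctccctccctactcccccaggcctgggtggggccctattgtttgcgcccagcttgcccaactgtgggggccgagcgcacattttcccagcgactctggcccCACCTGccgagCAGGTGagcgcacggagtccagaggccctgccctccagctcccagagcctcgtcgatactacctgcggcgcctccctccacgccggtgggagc
ZEB1 start 3, chr10:31318966-31319265, plus strand: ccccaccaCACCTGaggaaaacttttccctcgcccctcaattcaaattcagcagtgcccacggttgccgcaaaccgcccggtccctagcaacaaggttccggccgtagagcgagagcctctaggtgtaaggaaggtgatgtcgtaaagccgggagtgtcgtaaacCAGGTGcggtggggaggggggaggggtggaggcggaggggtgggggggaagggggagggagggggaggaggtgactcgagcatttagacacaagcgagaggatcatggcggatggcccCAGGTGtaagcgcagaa
The motif of FN1 began 183 bases before the start, the E-boxes of JUP 54 and 43 bases before it, and those of ZEB1 242 and 85 bases before and 33 bases after it. An E-box was found in 5 of the 44 windows (11.4%), those of CDH4, JUP, ZEB1 (2 windows) and S100A4, against 20.6% of all 35116 windows in the table, and TGACGTCA in 2 of the 44 against 1.85% of all. A match of letters describes the window and is not a bound site.

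The mature microRNAs miR-200c and miR-141 are shown because their host transcript bears on the ZEB genes. They are written from RefSeq (GRCh38.p14, plus strand), with the seed, bases 2 to 8, in capitals.
hsa-miR-200c-3p, chr12:6963742-6963764: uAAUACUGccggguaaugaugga
hsa-miR-141-3p, chr12:6964155-6964176: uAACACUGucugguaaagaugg
Their host transcript MIR200CHG had 0 counts in all 4 libraries. The mature microRNAs were not measured by these libraries.

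T24 cells held transcripts of a few EMT genes at very high levels and none or nearly none of others. Levels are compared between genes in TPM, the deposited value that is scaled by length and library size. The length behind it is not the length column of the table: for the 20 of the 36 genes with at least 50 counts in every library, the deposited TPM was 0.366 to 1.91 times the level computed from the counts over that column, and the factor differed between libraries. How the authors set it was not stated, so orders and ratios between genes are given on the computed scale (counts over length) as well where it changes them. Of the 36 genes, 22 reached a mean of 1 TPM in either group, 14 did not, and 2 of those 14 (CDH11 and TWIST1) had no count in any library. On the counts over length, scaled to the same total, 24 reached a level of 1, the 22 and 2 more. In control cells VIM ranked 60th among all 60623 genes, TPM2 183rd and FN1 237th, and on the counts over length 42nd, 189th and 317th. The catenins CTNNA1 and CTNNB1, SPARC and TPM1 followed at mean levels from 149 to 179 TPM. CDH2 stood at 53.3 TPM, SNAI2 at 17.6 TPM, ZEB1 at 9.97 TPM and ZEB2 at 6.35 TPM. The 10 genes that the filter on low counts removed before the test were CDH1, CDH3, CDH6, CDH11, TWIST1, TWIST2, PRRX1, CNN1, POSTN and FAP, none of which had more than 8 counts in any library.

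**Figure D1:**
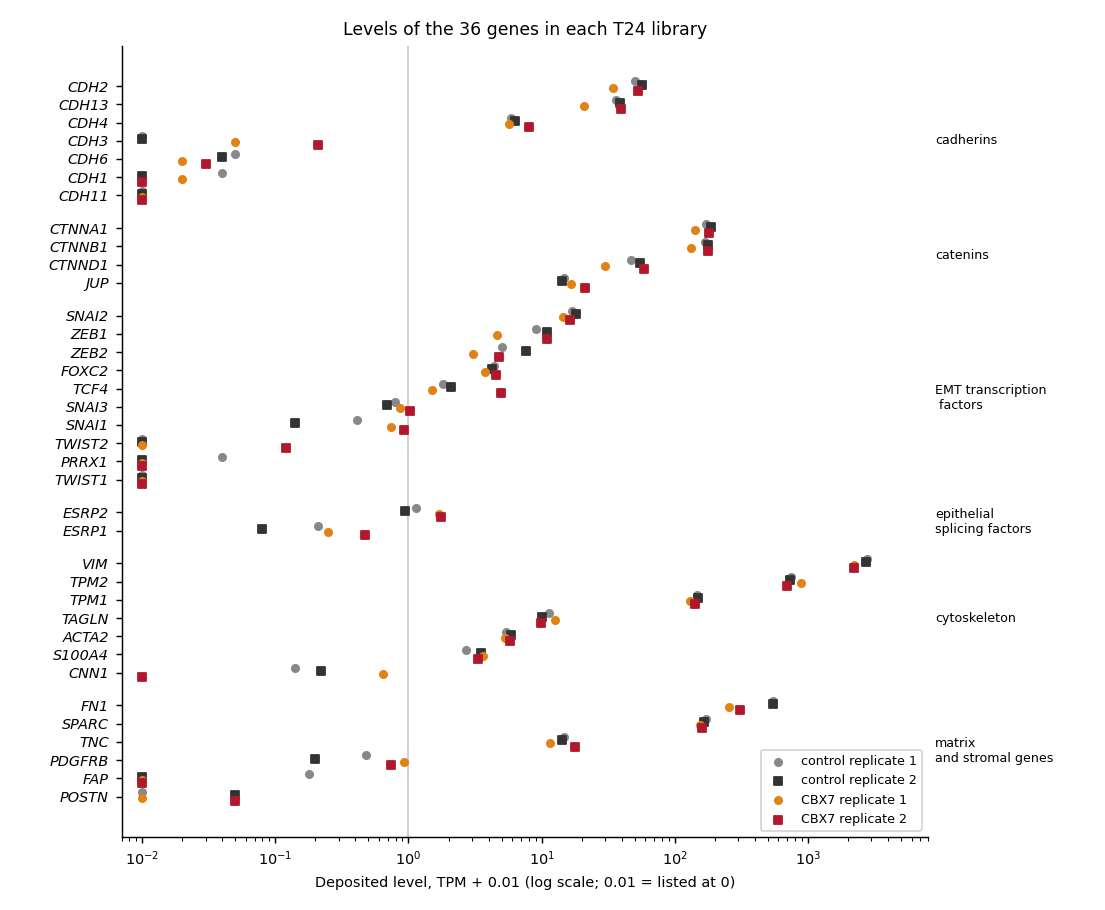
Deposited level of each of the 36 genes in each library, in TPM plus 0.01 on a log scale, grouped by role, with circles for replicate 1 and squares for replicate 2 of each group. The grey line marks 1 TPM, and points at 0.01 are listed at 0. VIM, TPM2 and FN1 sit highest, and CDH11 and TWIST1 sit at 0 in all 4 libraries.

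Among the cadherins, the calcium-dependent adhesion receptors, E-cadherin was at the limit of detection. CDH1 (ENSG00000039068, GRCh38 chromosome 16 from 68737225 to 68835548) had 2 and 0 counts in the control libraries and 1 and 0 in the CBX7 libraries. It was under the limit of 3 counts in all 4, so neither its presence in control cells nor a rise with CBX7 was detectable at this depth. P-cadherin (CDH3), the basal urothelial cadherin beside it on chromosome 16, had 0 and 0 counts in control cells and 3 and 4 in CBX7 cells, at the limit of 3 counts in CBX7 replicate 1 and 1 count above it in CBX7 replicate 2. K-cadherin (CDH6) had 6 and 1 counts in control cells and 1 and 2 in CBX7 cells. Osteoblast cadherin (CDH11), a cadherin of fibroblasts and osteoblasts, was at 0 in every library.

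N-cadherin was instead the most abundant cadherin. CDH2 (ENSG00000170558, chromosome 18 from 27950966 to 28177446) had 50.2 and 56.5 TPM in the control libraries and 34.1 and 52.8 TPM in the CBX7 libraries. T-cadherin (CDH13), which is held in the membrane by a lipid anchor and has no catenin-binding tail, had 36.3 and 38.8 TPM in control cells and 20.8 and 39.6 TPM in CBX7 cells. R-cadherin (CDH4), the closest relative of N-cadherin, had 5.85 and 6.35 TPM in control cells and 5.65 and 8.06 TPM in CBX7 cells. CBX7 replicate 1 was lowest of the 4 libraries for all 3 genes on this scale, and the groups overlapped for each of them. Over 22 cadherin genes, CDH2 made up 47.6% and 48.5% of the summed TPM in control cells and 46.1% and 45.9% in CBX7 cells. CDH13 followed with 28.2% to 34.4% a library. CDH24, a cadherin of the type II class that was not among the 36, took 6.91% to 13.1%, and CDH4 took 5.45% to 7.65%. The 17 cadherins other than these and CDH8 summed to 1.09% to 1.47%. On the counts over length CDH2 took 44.8% to 47.9% and CDH13 32.6% to 39.4%, in the same order, while CDH8, with few counts, took 2.59% to 4.72% in TPM and 0.127% to 0.174% on the counts over length.

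**Figure D2:**
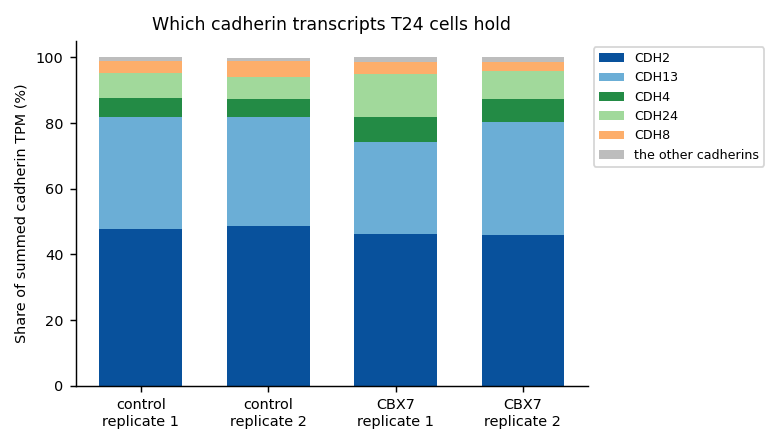
Share of the summed TPM of 22 cadherin genes taken by each, in percent, 1 bar for each library. CDH2 takes from 45.9% to 48.5% in every library, and CDH1, CDH3, CDH6 and CDH11 lie within the grey band of the other 17.

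The catenins link cadherins to actin, and their transcripts were all present. CTNNA1 (alpha-catenin, the actin-binding link) had 172, 186, 142 and 180 TPM in control replicates 1 and 2 and CBX7 replicates 1 and 2, and CTNNB1 (beta-catenin) had 167, 178, 133 and 176 TPM. Their ratio stayed between 1.02 and 1.07 in the 4 libraries. CTNND1 (p120-catenin, which keeps cadherins at the surface) had 47.0, 54.6, 29.7 and 58.8 TPM, and JUP (plakoglobin, the catenin shared with desmosomes) had 14.8, 14.1, 16.7 and 21.2 TPM. CTNNB1 exceeded JUP 11.3- and 12.6-fold in control cells and 7.97- and 8.33-fold in CBX7 cells, so the 2 groups did not overlap in this ratio. How often other gene pairs separate the groups was not counted. On the counts over length the ratios were 10.7 and 12.7 against 7.37 and 8.33.

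Of the 10 transcription factors, SNAI2 and the ZEB genes led in TPM in control cells. On the counts over length FOXC2 (6.14 in control and 5.97 in CBX7 cells) lay above ZEB2 (3.75 and 2.57). In CBX7 cells its mean TPM was also above that of ZEB2 (4.17 against 3.9). SNAI2 (Slug) had 17.0, 18.1, 14.4 and 16.3 TPM in the same order of libraries, ZEB1 had 9.05, 10.9, 4.62 and 10.9 TPM, and ZEB2 had 5.05, 7.65, 3.04 and 4.76 TPM. The ZEB1 to ZEB2 ratio varied between 1.42 and 2.29 (3.12 to 4.23 on the counts over length), and CBX7 replicate 1 was the lowest library for both. FOXC2, a forkhead factor of mesenchymal and vascular cells, had 4.39, 4.22, 3.76 and 4.57 TPM. TCF4, a basic helix-loop-helix E-protein, had 1.81, 2.08, 1.48 and 4.93 TPM. Its level in CBX7 replicate 2 was the highest and that in CBX7 replicate 1 the lowest on this scale, whereas on the counts over length CBX7 replicate 1 exceeded both controls (3.36, 3.4, 4.04 and 9.46). SNAI1 (Snail) and SNAI3 (Smuc) were low, with 3 to 24 counts and 16 to 29 counts a library. The TWIST family and PRRX1, the homeobox factor of limb and craniofacial mesenchyme, were absent or nearly so: TWIST1 had 0 counts in every library, TWIST2 had 2 counts in CBX7 replicate 2 alone, and PRRX1 had 2 counts in control replicate 1 alone. At the count limit this puts TWIST1 at no more than 0.119 to 0.144 CPM.

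Both epithelial splicing factors were low. ESRP2 had 1.13 and 0.93 TPM in control cells and 1.69 and 1.73 TPM in CBX7 cells, and ESRP1 had 12 and 2 counts in control cells and 14 and 18 in CBX7 cells. The groups did not overlap for either gene.

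The cytoskeletal genes held the highest level of all 36. VIM (vimentin, the intermediate filament of mesenchymal cells, ENSG00000026025, chromosome 10 from 17228259 to 17237593) had 2757 and 2726 TPM in control cells and 2206 and 2228 TPM in CBX7 cells. TPM2 (beta-tropomyosin, which lies along actin filaments) had 743, 735, 881 and 702 TPM, and TPM1 (alpha-tropomyosin) had 147, 150, 131 and 141 TPM. TPM2 exceeded TPM1 4.9- to 6.73-fold, with the highest ratio in CBX7 replicate 1. The smooth muscle genes were far lower: TAGLN (transgelin) had 11.4, 9.97, 12.6 and 9.93 TPM, ACTA2 (smooth muscle actin) had 5.40, 5.87, 5.32 and 5.80 TPM, and CNN1 (calponin) had 0 to 8 counts. The calcium-binding protein S100A4, also called fibroblast-specific protein, had 2.70, 3.49, 3.64 and 3.33 TPM from 18 to 27 counts a library.

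Among matrix genes, FN1 (fibronectin, the adhesive matrix glycoprotein) had 550 and 545 TPM in control cells and 255 and 311 TPM in CBX7 cells. SPARC (osteonectin, a collagen-binding matricellular protein) had 173, 166, 155 and 161 TPM. TNC (tenascin-C, a large matrix protein of wounds and tumours) had 14.7, 14.3, 11.5 and 17.8 TPM. The markers of cancer-associated fibroblasts were under the limit of 3 counts: POSTN (periostin) had 0 or 2 counts, and FAP had 1 count in control replicate 1 alone. PDGFRB, a growth factor receptor of pericytes and fibroblasts, was low but above that limit, with 14, 15, 19 and 25 counts.

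Of these 36 genes, 26 had enough counts for the comparison between groups, and none passed an adjusted p of 0.05 in the quasi-likelihood test of edgeR, with p-values adjusted over 14862 genes by the method of Benjamini and Hochberg. That background was 0.0202% of all genes tested, 3 genes. The test also used 2 libraries a group, where an exact two-sided permutation test of 1 gene cannot go under 0.333. At an unadjusted p under 0.05, 4 of the 26 were higher with CBX7 (JUP, SNAI1, TCF4 and ESRP2), against 3.42% of all genes, and 1 was lower (FN1), against 1.32% of all genes. With DESeq2's Wald test 1 of the 26 genes, FN1, passed an adjusted p of 0.05, as did 0.451% of all genes. In CPM after TMM scaling, the CBX7 libraries were both above the 2 control libraries for 9 genes, 34.6% of those tested against 15.4% of all genes, and below them for 6 genes, 23.1% against 14.8% of all genes. The 9 were CDH4, JUP, SNAI1, SNAI3, TCF4, ESRP1, ESRP2, ACTA2 and PDGFRB, and the 6 were CDH2, CDH13, CTNNB1, CTNNA1, SNAI2 and FN1. The median log2 fold change was 0.04 over the 26 genes and 0.002 over all genes tested. After the length and GC correction it was -0.02 and -0.009, and 8 of the 26 genes were then higher with no overlap (against 18.1% of all genes) and 9 lower (against 21.7%). SNAI3 was no longer among the higher genes, and ZEB1, ZEB2 and VIM joined the lower ones. The filter kept SNAI1 and ESRP1 although control replicate 2 held only 3 and 2 of their counts.

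**Figure D3:**
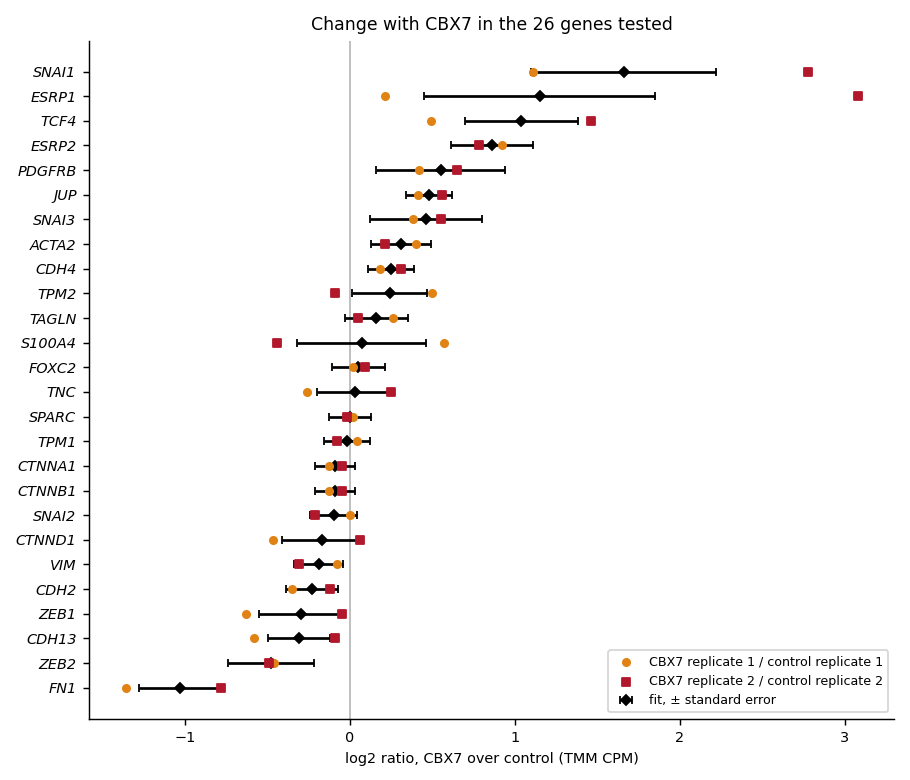
Log2 ratio of CBX7 to control for the 26 genes tested, from CPM after TMM scaling: coloured points for the libraries numbered 1 and 2, black diamonds with bars for the fitted value and its standard error. FN1 lies lowest at -1.03, SNAI1 highest at 1.66, and the points of replicates 1 and 2 fall on opposite sides of 0 for TPM1, TPM2, S100A4, SPARC, TNC and CTNND1.

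FN1 (ENSG00000115414, GRCh38 chromosome 2 from 215360440 to 215436172, minus strand) was 1770 and 1940 CPM in the control libraries and 689 and 1130 CPM in the CBX7 libraries. Both CBX7 libraries were well below both control libraries, and CBX7 replicate 1 was the lower of the pair. The fitted level was 2.04-fold lower with CBX7, a log2 fold change of -1.03 ± 0.25 (SE, unadjusted p = 0.00716, adjusted p = 0.597, edgeR quasi-likelihood test). The ratio was -1.36 between the libraries numbered 1 and -0.78 between those numbered 2. Its deposited length of 8804 bases is among the longest of the 36. Corrected for length and GC content it was -0.88 with a standard error of 0.07 (adjusted p = 0.0581, edgeR), and without CBX7 replicate 1 it was -0.71 (adjusted p = 2.78e-12, edgeR, with the lone CBX7 library assumed to vary as the control libraries do). With DESeq2's Wald test the adjusted p was 0.00687. With no filter on low counts edgeR's adjusted p was 1.18e-08, from a fit whose variance was shared over genes and not that of FN1 itself. FN1 was lower in every fit, from -1.43 to -0.71.

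Of the genes that the cadherin switch names, CDH2 was 149 and 160 CPM in control cells and 117 and 147 CPM in CBX7 cells. The groups did not overlap, by the narrow gap between control replicate 1 and CBX7 replicate 2. The log2 fold change was -0.23 ± 0.16 (SE, adjusted p = 0.951, edgeR), and -0.16 after the length and GC correction. It was -0.063 without CBX7 replicate 1 and -0.40 without CBX7 replicate 2, each from a fit with 1 CBX7 library. CDH13 was 86.2 and 86.2 CPM in control cells and 57.6 and 81.0 CPM in CBX7 cells, with ratios of -0.58 and -0.09 and a value of -0.29 after that correction. CDH4 was 29.9 and 31.0 CPM in control cells and 33.9 and 38.4 CPM in CBX7 cells, a log2 fold change of 0.25 ± 0.14 (SE, adjusted p = 0.951, edgeR). After the length and GC correction CDH4 was at 0.27 with an unadjusted p of 0.0143, and without CBX7 replicate 2 it was at 0.15 (unadjusted p = 0.196, edgeR). On the TPM scale the CDH2 to CDH4 ratio was 8.57 and 8.89 in control cells, against 6.03 and 6.55 in CBX7 cells, with no overlap, and 8.28 and 8.58 against 5.73 and 6.39 on the counts over length. The CDH2 to CDH13 ratio in TPM overlapped, at 1.38 and 1.45 against 1.64 and 1.33.

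JUP (ENSG00000173801, chromosome 17 from 41754604 to 41786931, minus strand) was 34.4 and 29.5 CPM in control cells and 45.7 and 43.4 CPM in CBX7 cells. Both CBX7 libraries exceeded both control libraries, and their spread was small. The log2 fold change was 0.48 ± 0.14 (SE, unadjusted p = 0.0173, adjusted p = 0.797, edgeR), with ratios of 0.41 and 0.56, and it was 0.36 after the length and GC correction. Without CBX7 replicate 1, which leaves 1 CBX7 library, it was 0.44. Its unadjusted p was 0.112 without control replicate 1 and 0.319 without control replicate 2. The other catenins had values near 0: CTNNB1 and CTNNA1 were at -0.09 each, with CBX7 libraries narrowly below the control libraries, and CTNND1 was at -0.17, with ratios of -0.47 and 0.06 that pointed opposite ways. After the length and GC correction these 3 lay at -0.05, -0.04 and -0.06.

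Of the 7 transcription factors tested, 4 had a positive and 3 a negative log2 fold change. TCF4 (ENSG00000196628, chromosome 18 from 55222331 to 55664787, minus strand) was 4.32 and 4.24 CPM in control cells and 6.05 and 11.6 CPM in CBX7 cells. CBX7 replicate 2 was far above the other 3 libraries and CBX7 replicate 1 somewhat above the controls, where the TPM values had it below them. The log2 fold change was 1.04 ± 0.34 (SE, unadjusted p = 0.0232, adjusted p = 0.894, edgeR), and the ratios of 0.49 and 1.46 differed by more than the standard error. Corrected for length and GC content its value was 1.07, and it was 1.45 without CBX7 replicate 1 and 0.50 without CBX7 replicate 2. With no filter on low counts the adjusted p was 0.00254 (edgeR), from a fit whose variance was shared over genes and not that of TCF4 itself. SNAI1 (ENSG00000124216, chromosome 20 from 49982999 to 49988886) rested on 11 and 3 counts in control cells and 24 and 22 in CBX7 cells. Both CBX7 libraries were above the controls, by a log2 fold change of 1.66 ± 0.56 (SE, unadjusted p = 0.0263, adjusted p = 0.916, edgeR), at a level of 0.143 to 0.994 CPM that stayed under 1 TPM. The value was 1.53 after the length and GC correction, 2.74 without control replicate 1 and 1.09 without control replicate 2. The unadjusted p was 0.171 without control replicate 2 and 0.0631 with DESeq2's Wald test, so the call depended on the fit.

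ZEB1, a repressor of CDH1, was 37.5 and 41.0 CPM in control cells and 24.2 and 39.6 CPM in CBX7 cells. CBX7 replicate 1 was low and CBX7 replicate 2 lay within the control range. The log2 fold change was -0.30 ± 0.25 (SE, adjusted p = 0.951, edgeR), and without CBX7 replicate 1 it was 0.019. After the length and GC correction of all 4 libraries it was -0.18, with both CBX7 libraries below both controls. ZEB2 was 14.6 and 21.0 CPM in control cells and 10.6 and 15.0 CPM in CBX7 cells. The groups overlapped narrowly, since CBX7 replicate 2 was above control replicate 1. Its log2 fold change of -0.48 (standard error 0.26, adjusted p = 0.951, edgeR) had ratios of -0.46 and -0.49, and it was -0.28 after the length and GC correction. It was -0.24 without CBX7 replicate 1, -0.75 without CBX7 replicate 2, -0.72 without control replicate 1 and -0.19 without control replicate 2. Each of these fits left 1 library in a group. ZEB1 is 5990 bases and ZEB2 9583 bases long in the deposited table. SNAI2 was 26.2 and 27.0 CPM in control cells and 26.2 and 23.4 CPM in CBX7 cells, a log2 fold change of -0.10 before and after that correction. FOXC2 and SNAI3 were at 0.05 and 0.46, with standard errors of 0.16 and 0.34, and at -0.11 and 0.19 after it.

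ESRP2 (ENSG00000103067, chromosome 16 from 68229111 to 68238102, minus strand) was 2.64 and 2.24 CPM in control cells and 5.01 and 3.85 CPM in CBX7 cells. Each CBX7 library exceeded both controls. The log2 fold change was 0.86 ± 0.25 (SE, unadjusted p = 0.0166, adjusted p = 0.788, edgeR), with ratios of 0.92 and 0.78 and a value of 0.78 after the length and GC correction. Without control replicate 2 its unadjusted p was 0.11. ESRP2 shares 149 exon bases with NFATC3 on the opposite strand and 35 with AC020978.5 on its own strand in GENCODE release 29, and the use of strand in counting was not stated. NFATC3 had 739, 750, 614 and 885 counts, and its log2 fold change was -0.04, while AC020978.5 had 173, 141, 258 and 148 counts. ESRP1 had a log2 fold change of 1.15 ± 0.70 (SE, adjusted p = 0.951, edgeR) from ratios of 0.21 and 3.08, the latter against 2 counts in control replicate 2, and 1.21 after the correction. It was 2.79 without control replicate 1 and 0.45 without control replicate 2, each from a fit with 1 control library.

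**Figure D4:**
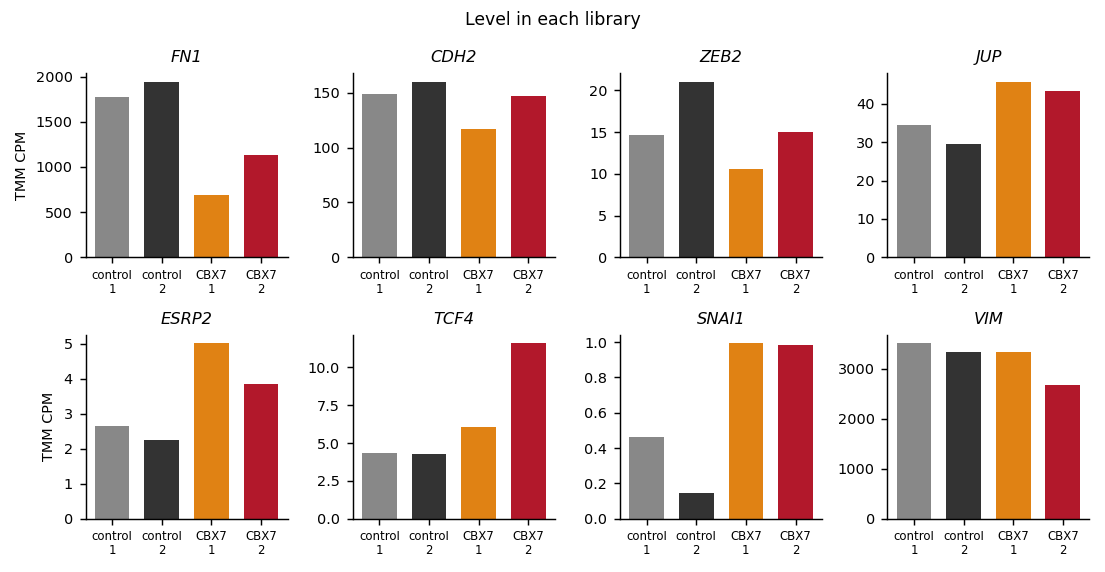
Level of 8 of the genes in each library, in CPM after TMM scaling, with axes that start at 0. FN1 is lower in both CBX7 libraries (689 and 1130 CPM) than in both control libraries, JUP, ESRP2, TCF4 and SNAI1 are higher in both, and VIM and ZEB2 overlap.

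VIM depended on the scale. In TPM both CBX7 libraries lay below both controls, but after TMM scaling of the counts VIM was 3510 and 3330 CPM in control cells and 3330 and 2680 CPM in CBX7 cells. The log2 fold change was -0.19 ± 0.15 (SE, adjusted p = 0.951, edgeR), with ratios of -0.08 and -0.31. After the length and GC correction it was -0.21, the groups did not overlap and the unadjusted p was 0.0529. Without CBX7 replicate 1 it was -0.35, and without CBX7 replicate 2 it was -0.039, each from a fit with 1 CBX7 library. The remaining cytoskeletal genes had log2 fold changes between -0.02 (TPM1) and 0.31 (ACTA2, which was at -0.019 in TPM), and ratios of 0.50 and -0.09 for TPM2 fell on either side of 0. After the correction TPM1 was at -0.05, TPM2 at 0.08, ACTA2 at 0.20, TAGLN at 0.00 and S100A4 at -0.17. ACTA2 shares 380 exon bases with FAS on the opposite strand, which had 1091 to 1256 counts against 107 to 158 for ACTA2, and TAGLN shares 446 with PCSK7, so reads of these pairs cannot be told apart if counting ignored strand.

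In the matrix group, apart from FN1, SPARC differed between groups by less than its standard error of 0.13, at 237 and 225 CPM in control cells and 240 and 221 CPM in CBX7 cells. TNC had ratios of -0.26 and 0.25 and a fitted value of 0.03. PDGFRB was at 0.55 with a standard error of 0.39, from 14 to 25 counts a library, and at 0.28 without CBX7 replicate 2. Corrected for length and GC content, these 3 were at 0.04, 0.11 and 0.57.

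**Figure D5:**
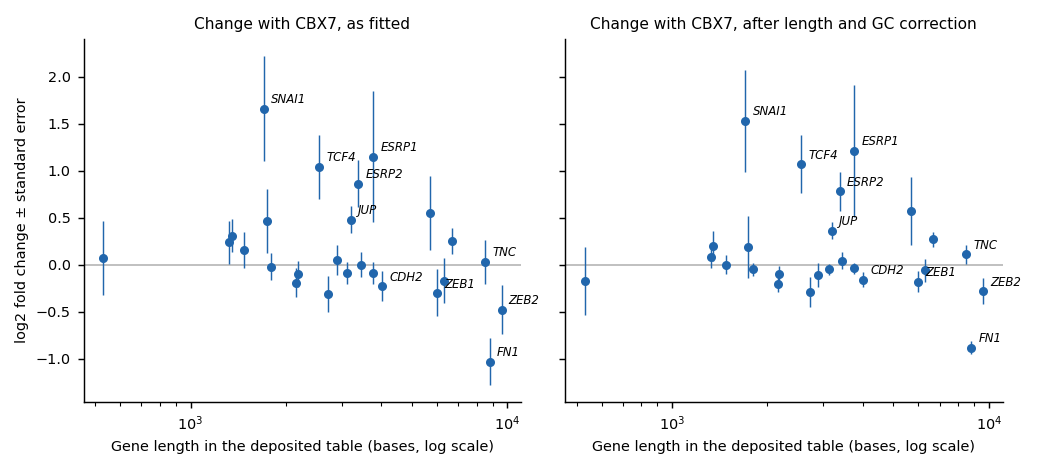
Log2 fold change with CBX7 of the 26 genes tested, with bars of 1 standard error, against the gene length in the deposited table on a log axis, as fitted (left) and after the length and GC correction (right). FN1 moves from -1.03 to -0.88 and ZEB2 from -0.48 to -0.28, and the bars of most genes shorten.

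Leaving out CBX7 replicate 1 altogether, 6 of the 26 genes were higher at an unadjusted p under 0.05 (CDH4, JUP, SNAI1, TCF4, ESRP2 and TNC) against 6.11% of all genes, and 2 were lower (VIM and FN1) against 3.25%. JUP, TCF4, VIM and FN1 then passed an adjusted p of 0.05, as did 2.59% of all genes. After the length and GC correction of all 4 libraries, 5 were higher (CDH4, JUP, SNAI1, TCF4 and ESRP2) against 4.23% of all genes, 1 was lower (FN1) against 3.66%, and none passed the adjusted threshold, which 0.0336% of all genes did. The genes higher at an unadjusted p under 0.05 in all 3 of these fits were JUP, SNAI1, TCF4 and ESRP2, and the gene lower in all 3 was FN1. Without control replicate 2, however, TCF4 alone was higher, against 1.87% of all genes, and FN1 alone lower, against 0.609%, and in the same way JUP was not called without control replicate 1, nor SNAI1 with DESeq2's Wald test. These fits share libraries and are not independent of each other.

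Genes around the 36 were grouped in lists, and no gene of these passed an adjusted p of 0.05 in the test used here, on all 4 libraries with the filter on low counts. With no filter, in the fit whose variance was shared over genes, KRT19, SPINT1, LSR, LLGL2, BGN and CSPG4 passed it, as did 1.01% of all genes. At an unadjusted p under 0.05, 3.42% of all genes tested were higher and 1.32% lower, and 15.4% and 14.8% were higher and lower with no overlap, against which each count below is to be read. Of 26 genes of the epithelial programme, 19 were tested, 6 were higher and 1 lower at an unadjusted p under 0.05, 8 and 1 did not overlap, and the median log2 fold change was 0.28 (0.15 after the length and GC correction), against 0.002 and -0.009 over all genes. The keratins KRT7 and KRT18, partners in the filaments of simple epithelia, were abundant, at 1210 and 1110 TPM in control cells, beside the vimentin level given above. LLGL2, a basolateral polarity protein, was 3.06 and 3.43 CPM in control cells and 16.6 and 12.8 CPM in CBX7 cells, a log2 fold change of 2.18 ± 0.21 (SE, adjusted p = 0.172, edgeR) and 2.03 after the correction. LSR, which recruits tricellulin to the corners of epithelial cells, was at 1.35 (standard error 0.20, adjusted p = 0.26, edgeR; 1.11 corrected) and KRT19 at 1.35 (standard error 0.23, adjusted p = 0.352, edgeR; 1.10 corrected). The 1 lower gene was ELF3, an epithelial ETS factor named after its values were seen, at -0.40 (-0.44 corrected). All of the lists were themselves written with earlier results of these data known, so their counts are not independent of the data. The desmosomal genes DSP, DSC2 and DSG2, also named after their values were seen, were at -0.42, -0.45 and -0.21, with overlapping groups. After the correction they were at -0.28, -0.25 and -0.11, and DSP and DSC2 were then lower with no overlap. The desmosomal plakophilins PKP3 and PKP2 of the same list went the other way, at 0.37 (with no overlap) and 0.11. After the correction PKP3 and PKP2 were at 0.11 and 0.18, both higher with no overlap. GRHL2 and OVOL1, transcription factors that hold the epithelial state, had no counts.

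Of 16 partners of the adherens junction, 12 were tested, 1 was higher and none lower at an unadjusted p under 0.05 (against 3.42% and 1.32% of all genes), 3 and 2 did not overlap, and the median was -0.07 (0.00 corrected). The higher gene was ARVCF, a p120-catenin relative, at 28.2 and 26.6 CPM in control cells and 44.7 and 37.6 CPM in CBX7 cells, a log2 fold change of 0.59 ± 0.15 (SE, adjusted p = 0.642, edgeR) and 0.41 after the correction. ACTN4 and CTNNAL1, the most abundant of the list in TPM, were at -0.13 and 0.24. On the counts over length ACTN1, at -0.11, lay above both in every library. Of 15 other cadherins, 4 were tested, 1 was higher and none lower at that p, and 2 were higher and 2 lower with no overlap (against 15.4% and 14.8% of all genes). The higher gene was CDH24, at 18.5 and 17.7 CPM in control cells and 25.4 and 22.5 CPM in CBX7 cells (0.22 after the correction), while CDH8 was at -0.48 (-0.27 corrected). VE-cadherin (CDH5), the cadherin of endothelium, named after its values were seen, had 13 and 12 counts in control cells and 3 and 7 in CBX7 cells. Its log2 fold change was -1.35 ± 0.57 (SE). It passed the filter on low counts through the control libraries alone, so its place among the 2 lower genes is no support for a change. Of 22 contractile genes, 18 were tested and none was higher or lower at that p (against 3.42% and 1.32% of all genes), 2 were higher and 3 lower with no overlap, and the actins ACTB and ACTG1 were both at 0.06.

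Of 19 further EMT regulators, 14 were tested, 2 were higher and none lower at an unadjusted p under 0.05 (against 3.42% and 1.32% of all genes), 3 and 3 did not overlap, and the median was -0.04. The 2 were SOX4, a SOX factor, which was 4.74 and 5.72 CPM in control cells and 8.49 and 9.31 CPM in CBX7 cells (log2 fold change 0.77, standard error 0.19, adjusted p = 0.597, edgeR), and FOXQ1, a forkhead factor, at 0.99 (standard error 0.36, adjusted p = 0.951). After the correction these stood at 0.84 and 0.82. The corepressor CTBP1, which ZEB factors recruit, and SCRIB were the most abundant, at -0.01 and 0.05. Of 21 further mesenchymal matrix genes, 18 were tested, 2 were higher and 1 lower (against 3.42% and 1.32%), 2 and 7 did not overlap (against 15.4% and 14.8%), and the median was -0.12 (-0.07 corrected). BGN (biglycan) had 3 and 1 counts in control cells and 23 and 22 in CBX7 cells. It passed the filter on low counts through the CBX7 libraries alone, so its place among the 2 higher genes is no support for a change. CCN2 (connective tissue growth factor) was at 0.49 (standard error 0.14, adjusted p = 0.776, edgeR, and 0.45 corrected). NT5E (CD73) was the lower gene, at -0.41 (standard error 0.14, adjusted p = 0.941, edgeR, and -0.35 corrected). S100A6 and S100A11, the most abundant, were at 0.21 and 0.20 with ratios on either side of 0.

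Markers of stromal, immune and vascular cells were measured as well. Of 14 such markers, 4 reached 1 TPM and 5 were tested, and their summed level was 16.7 and 13.5 TPM in control cells and 10.6 and 18.0 TPM in CBX7 cells. The fibroblast gene DPT was at 0 in every library, and MFAP5, PDGFRA, the leukocyte gene PTPRC and the endothelial genes PECAM1 and VWF had no more than 4 counts in any. The fibroblast genes DCN and LUM had 3 to 10 and 3 to 8 counts, and the collagen gene COL1A2 had 3 to 11. Markers above that level were the collagens COL1A1, with 60, 54, 87 and 106 counts, and COL3A1, with 14, 8, 16 and 18, the pericyte markers CSPG4, with 201, 137, 445 and 497, and RGS5, with 37.1, 28.0, 22 and 21.9, and the lysosomal protein CD68 of macrophages, with 309, 218, 205 and 155. Of the tested markers 2 were higher and 1 lower at an unadjusted p under 0.05 (against 3.42% and 1.32% of all genes), and 3 were higher and 2 lower with no overlap (against 15.4% and 14.8%). CSPG4, also a proteoglycan of the surface of some tumour cells, was at 1.44 (standard error 0.20, adjusted p = 0.26, edgeR), COL1A1 at 0.71, and CD68 at -0.60, with corrected values of 1.40, 0.70 and -0.71. COL3A1 and RGS5 were at 0.58 and -0.61. All 4 libraries were made from the T24 line and not from tissue, and a part of other cells in the FN1 level was not tested. Fewer T24 cells holding a transcript and less of it per cell cannot be told apart in such libraries.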

How the data were processed

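RNA of T24 cells was sequenced on an Illumina HiSeq instrument in 2 control and 2 CBX7 libraries. For each gene and library the authors deposited an estimated count, not always whole, a TPM value scaled by a length that is not the deposited one, and the gene length. The submitters' processing notes name cutadapt 1.9.1, HISAT2 2.0.1, HTSeq 0.6.1, DESeq2 and hg19 without their roles. The table gives no coordinates, and those printed are from GENCODE release 29 on GRCh38, which held 96.5% of its gene identifiers. The authors' own fold changes and p-values stand in the same table and were not used.

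The deposited counts were rounded and filtered by filterByExpr. After TMM scaling they were tested by the quasi-likelihood functions of edgeR 4.0.16 (glmQLFit, glmQLFTest; R 4.3.3), with group as the sole term and p-values adjusted over 14862 genes by Benjamini-Hochberg, after the scripts were tested on simulated data. The trend with gene length and GC content was removed in the alternative by smooth offsets (mgcv 1.9.3). All 36 genes are accounted for, those reaching 1 TPM by library and the others by counts. From each list the 2 most abundant genes and up to 3 with non-overlapping groups and an unadjusted p under 0.05 are named. The genes and lists were chosen with earlier results of these data known. Alternatives were DESeq2 1.42.0 (its size factors and Wald test), upper-quartile scaling, a filter of 10 counts in each library or none, the newer quasi-likelihood form, a replicate block, TPM with a pseudocount of 0.1, each library left out and, chosen after seeing the data, levels from counts over the deposited length in place of TPM. The libraries of a group were not copies (chi-square per degree of freedom 6.49 in control and 59.7 in CBX7).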

Additional observations from a re-analysis of the deposited data

How the results depend on the processing

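CBX7 lay between 7.26 and 7.44 in the fits to counts. Against 3 genes, DESeq2's Wald test called 67, no filter 265, the replicate block 361, the length and GC correction 5 and both together 154, and fits without 1 library 45 to 5491. Of the 26 genes tested, against none, 1 passed with DESeq2's Wald test (FN1, against 0.451% of all genes), 2 under the replicate block (against 2.43%) and 2 without the filter (against 1.01%; FN1 and TCF4 each time, with edgeR's adjusted p of 9.69e-07 and 0.000973 under the block), 1 with the block and correction (FN1, against 1.04%) and 0 to 11 without 1 library, the 11 without CBX7 replicate 2 (against 35.5% of all genes), which leaves CBX7 replicate 1 alone in its group. At an unadjusted p under 0.05, the lower genes numbered 2 with no filter (against 1.71% of all genes), 4 with the replicate block (CDH13, ZEB1, ZEB2 and FN1, against 4.35% of all genes), 3 with block and correction (against 5.53%) and 1 to 7 without 1 library (against 0.609% to 21.0%), and the higher genes 1 to 6 (against 1.87% to 22.0%; 5 with the block, against 5.82%). Genes with no overlap numbered 10 to 15 higher (against 22.3% to 43.9% of all genes) and 7 to 10 lower (22.5% to 43.3%) without 1 library, at 11 and 10 (35.4% and 34.7%) without CBX7 replicate 1. Of the 90 genes tested in the lists around the 36, against none, 5 passed an adjusted p of 0.05 with DESeq2's Wald test (against 0.451% of all genes). Under the replicate block 9 passed (LLGL2, LSR, KRT19, SPINT1, SPINT2, ARVCF, SOX4, BGN and CSPG4, against 2.43%). With block and correction 6 passed (LLGL2, LSR, KRT19, SPINT1, CCN2 and CSPG4, against 1.04%), and with no filter 6 of 123 (against 1.01%). The number also changed in fits without 1 library, which leave 1 library in a group. The median log2 fold change was 0.0115 with at least 10 counts, 0.0255 with the block, -0.0161 with the correction, -0.0162 with both, and -0.00749 to 0.077 without 1 library.

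Signs turned: SPARC to 0.00082 with no filter, TNC to -0.0067 with the block, FOXC2 to -0.11, S100A4 to -0.17 and SPARC to 0.044 with the correction, FOXC2 to -0.11, S100A4 to -0.14 and SPARC to 0.041 with block and correction, and FOXC2 to -0.047 and ACTA2, from 0.31, to -0.019 in TPM. In TPM 8 more of the 26 moved by more than the SD of their ratios in the libraries numbered 1 and 2, CTNNB1 to -0.16, CTNNA1 to -0.15, ZEB2 to -0.69, SNAI3 to 0.32, ESRP2 to 0.68, TPM1 to -0.13, SPARC to -0.10 and PDGFRB to 1.10. Without 1 library CTNND1 ranged from -0.55 to 0.14, ZEB1 from -0.70 to 0.019, TAGLN from -0.05 to 0.34, TPM1 from -0.12 to 0.083, TPM2 from -0.12 to 0.54, S100A4 from -0.19 to 0.35, SPARC from -0.057 to 0.054, TNC from -0.33 to 0.31 and FOXC2 from -0.0078 to 0.11. The cause was not tested. DESeq2's size factors, upper-quartile scaling and the newer quasi-likelihood form turned no sign and changed no count at either p among the 26, while lower genes with no overlap were 7 in place of 6 under the first (VIM joined, against 15.6% of all genes) and the second (ZEB2 joined, against 16.6%). Counts over the deposited length, an alternative chosen after seeing the data, put 24 in place of 22 genes at a level of 1 or more. Depth limits the 10 genes left untested, whose levels lie near the limit of 3 counts.

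Both groups carry replicate numbers 1 and 2, which are not stated to mark a batch, and 2 pairs cannot establish one. Deviations of same-numbered libraries from their group means correlated at 0.31 across genes, which are not independent replicates.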
